A study of Homo sapiens with 9 samples.

Results

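Collagens, laminins, integrins and other matrix glycoproteins were followed across 9 RNA-seq libraries of ES-2, a human ovarian cancer cell line. The genes were taken by name from the deposited table: collagen chains other than collagen VI, laminin chains, integrin alpha and beta chains, fibrillins, thrombospondins, fibronectin (FN1) and SPARC. They numbered 80 of the 32997 genes in the table. The groups were an empty vector, overexpression of OTUB2 and overexpression of SNX29P2, with 3 libraries each, all grown in the same serum-containing medium without further treatment. OTUB2 removes ubiquitin from proteins, and SNX29P2 is a pseudogene related to SNX29, a sorting nexin. The labels do not name the promoter of the constructs, whether the cells were a clone or a pool, or whether replicates were grown separately. The p-values therefore measure the spread between these libraries, which may be technical.

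Collagens form fibrils and sheets that give tissue its tensile strength, and laminins together with collagen IV build the basement membrane under epithelia. Integrins are receptors made of an alpha and a beta chain that bind these proteins and link them to the actin cytoskeleton. Fibronectin, fibrillins, thrombospondins and SPARC organise the matrix or regulate how cells hold on to it, and ovarian cancer cells use such contacts when they attach to the peritoneum.

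Depth ranged from 38504854 to 48551215 reads in genes per library. Levels are given in RPKM, reads scaled to gene length and to the depth of the library, so they can be compared between genes. OTUB2 stood at 37.6 to 42.6 RPKM in its own libraries and at 1.04 to 1.58 RPKM elsewhere, and SNX29P2 at 41.0 to 55.1 RPKM in its own libraries and at or below 0.0665 RPKM elsewhere. The keratins KRT8 and KRT18 reached at least 25.7 and 101 RPKM in every library and the mesenchymal filament gene VIM at least 975 RPKM, whereas the epithelial marker EPCAM stayed at or below 0.0192 RPKM and the ovarian lineage factor PAX8 at 0.149 to 0.421 RPKM. Of 4 stromal markers found in the table, PDGFRA alone averaged 1 RPKM or more, and the summed level of the 4 was 2.11 to 3.00 RPKM with the vector, 1.98 to 2.25 with OTUB2 and 1.99 to 2.20 with SNX29P2. The endothelial cadherin gene CDH5 was at 17.6 to 23.6 RPKM, while VWF was at or below 0.00408 RPKM.

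Of the 80 genes, 38 averaged 1 RPKM or more over the 9 libraries and 25 stayed below 0.1 RPKM in every library. The 42 genes that reached 0.5 RPKM in 3 or more libraries were tested. Each of these 42 in fact exceeded 0.5 RPKM in all 9 libraries, so none entered the test through 1 group alone. Values nearest the limit were 0.538 RPKM for the lowest library of a tested gene and 0.444 RPKM for the highest library of an untested one. Together the 80 genes took 0.835, 0.881 and 0.780% of reads in the vector group, 0.701, 0.780 and 0.759% under OTUB2, and 0.684, 0.767 and 0.760% under SNX29P2. The vector libraries covered the upper end of these shares, and vector replicate 3 lay level with OTUB2 replicate 2. Laminins went the other way, with mean shares of 0.146, 0.155 and 0.153% in the vector, OTUB2 and SNX29P2 groups. In the same order, FN1, SPARC, fibrillins and thrombospondins took 0.265, 0.209 and 0.207%. Collagens took 0.177, 0.160 and 0.156%, and integrins 0.244, 0.223 and 0.222%.

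**Figure D1:**
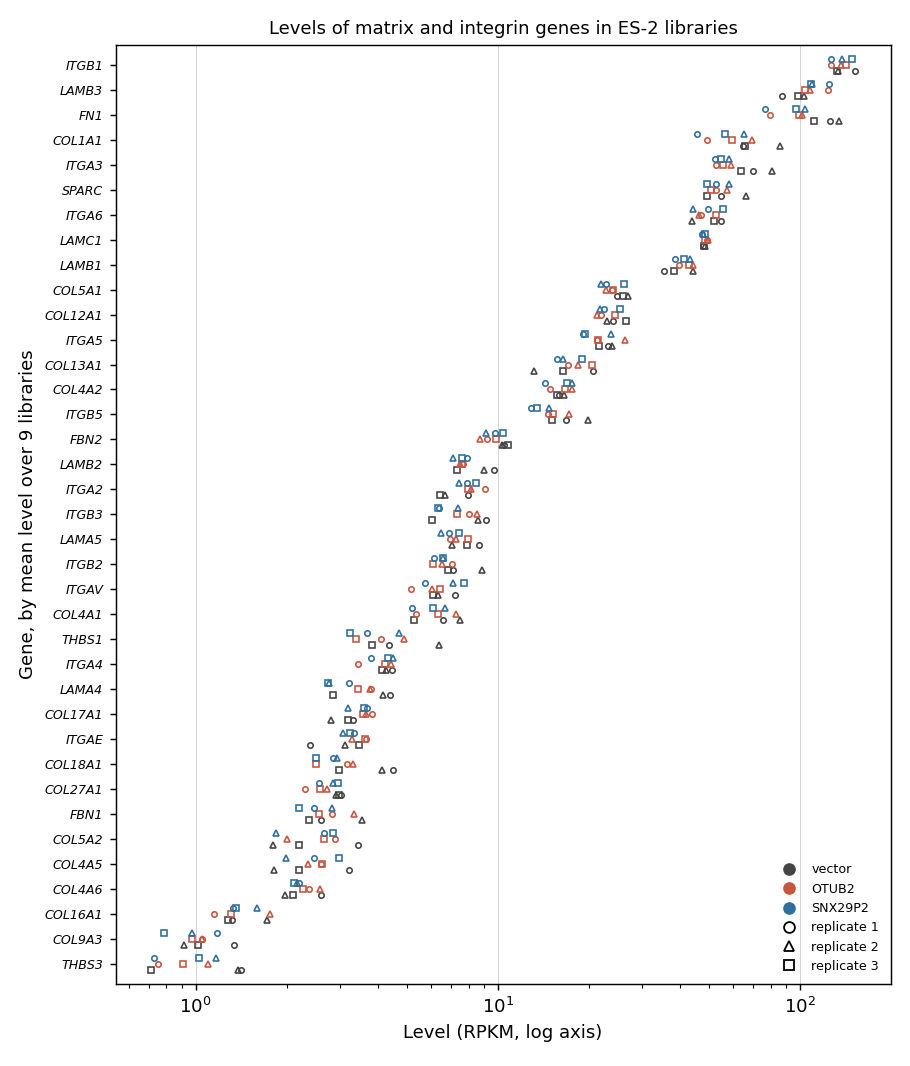
Levels of 37 genes that averaged 1 RPKM or more, in RPKM on a log axis, with 1 symbol per library (colour for group, shape for replicate) and genes ordered by mean level. ITGB1 stood highest, at 126 to 152 RPKM, and the 3 groups overlap for most genes.

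ITGB1, the beta chain shared by most integrins, had the highest level. It measured 152, 133 and 132 RPKM in the vector group, 126, 136 and 142 under OTUB2, and 127, 138 and 148 under SNX29P2. ITGB1 was above the next gene, LAMB3, in all 9 libraries with no overlap of their ranges. LAMB3, FN1, COL1A1, ITGA3, SPARC, ITGA6 and LAMC1 followed with means of 107, 103, 62.3, 60.8, 54.5, 49.5 and 48.4 RPKM, and the range of each overlapped that of its neighbour in this order. LAMC1 was separated from LAMB1 (mean 40.8 RPKM), and LAMB1 from the genes below it. COL5A1, COL12A1, ITGA5, COL13A1, COL4A2 and ITGB5, with means of 24.3 down to 15.6 RPKM, again overlapped in neighbouring pairs.

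Among fibrillar collagens, 4 of 11 genes were tested, and of the 2 chains of type I collagen COL1A1 alone was tested. COL1A1 (chromosome 17, 50183289 to 50201632, GRCh38), the alpha 1 chain, was at 64.6, 86.0 and 65.7 RPKM in the vector group, 49.3, 69.2 and 59.3 under OTUB2, and 45.5, 65.0 and 56.3 under SNX29P2. COL1A2, which encodes the alpha 2 chain that usually joins it, had 26 reads in all 9 libraries together, at most 8 in 1 library, and did not exceed 0.0168 RPKM. COL3A1, the partner fibrillar collagen of soft tissue, had 2 reads in total, both in OTUB2 replicate 1. COL1A2 and COL3A1 were singled out after their values were seen.

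COL5A1, a regulator of fibril thickness, was at 24.7, 26.9 and 25.9 RPKM in the vector group, 23.8, 22.8 and 23.9 under OTUB2, and 22.8, 22.0 and 26.1 under SNX29P2. Its OTUB2 libraries lay below every vector library, while one SNX29P2 library lay within the vector range. Its partner chain COL5A2 ranged from 1.81 to 3.45 RPKM, so the ratio of COL5A1 to COL5A2 was 7.16 to 14.9. COL5A2 lies 19149 bases from the nearly silent COL3A1 on chromosome 2. COL27A1, a fibrillar collagen of cartilage, was at 3.02, 2.91 and 2.99 RPKM in the vector group, 2.31, 2.72 and 2.58 under OTUB2, and 2.55, 2.84 and 2.97 under SNX29P2.

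Basement membrane collagens were present as 2 pairs of chains whose genes lie head to head. COL4A1 and COL4A2, which assemble into the common collagen IV network, start 127 bases apart on chromosome 13 and are read in opposite directions, and their listed extents overlap. COL4A1 measured 6.58, 7.48 and 5.28 RPKM in the vector group, 5.35, 7.29 and 6.32 under OTUB2, and 5.21, 6.71 and 6.08 under SNX29P2. COL4A2 measured 15.9, 16.6 and 15.7 RPKM in the vector group, 14.9, 17.6 and 16.7 under OTUB2, and 14.4, 17.5 and 16.9 under SNX29P2. COL4A2 was 2.22 to 2.96 times the level of COL4A1 in every library, and neither gene separated the groups. COL4A5 and COL4A6 start 380 bases apart on the X chromosome. COL4A5 measured 3.21, 1.82 and 2.20 RPKM in the vector group, 2.60, 2.35 and 2.63 under OTUB2, and 2.47, 1.99 and 2.99 under SNX29P2. COL4A6 was nearly level with it, at 0.916 to 1.41 for the ratio of COL4A5 to COL4A6. The remaining pair, COL4A3 and COL4A4, stayed at or below 0.0318 RPKM.

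Sequence from between the paired starts is shown because each pair is transcribed outward from one short region. The first is the whole interval between the starts of COL4A1 and COL4A2, at chr13:110307158-110307283, and the second the 250 bases before the start of COL4A5, at chrX:108439588-108439837. Both are from RefSeq on GRCh38.p14, plus strand, 5′ to 3′. Capitals mark matches, on either strand, to CCAAT, to GGGCGG (the GC box), to TGACGTCA (the cAMP response element) or to TATAAA.
COL4A1 to COL4A2: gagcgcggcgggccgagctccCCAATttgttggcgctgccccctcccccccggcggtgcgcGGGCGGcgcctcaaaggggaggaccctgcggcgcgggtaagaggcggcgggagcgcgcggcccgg
COL4A6 to COL4A5: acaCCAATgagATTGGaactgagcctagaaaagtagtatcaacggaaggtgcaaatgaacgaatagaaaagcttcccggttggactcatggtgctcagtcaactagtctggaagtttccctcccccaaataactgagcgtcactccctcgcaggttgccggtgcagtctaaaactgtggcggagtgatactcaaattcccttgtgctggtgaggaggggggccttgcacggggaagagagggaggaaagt

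The first interval holds 1 CCAAT and 1 GGGCGG, and the second holds 2 CCAAT matches facing each other. RefSeq promoter windows of 300 bases, 250 before and 50 after a start, were matched for 60 of the 80 genes, giving 81 windows. COL1A1, COL1A2 and ITGA3 were among the genes without a window, and some genes had more than 1. GGGCGG occurred in 71.4% of the 42 windows of genes averaging 1 RPKM or more, in 43.6% of the 39 windows of genes below that level and in 45.0% of all 35116 windows. CCAAT occurred in 26.2, 33.3 and 34.6% of the same windows, TATAAA in 11.9, 10.3 and 11.5%, and TGACGTCA in 2.38, 0 and 1.85%. Median GC content was 67.3% for the higher genes, 60.0% for the lower ones and 58.7% for all windows. All windows together were not split by the level of their genes, so they are no match for the higher genes. These matches describe letters in the windows and not bound sites.

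Other collagens were few. COL12A1, a fibril-associated collagen, measured 24.0, 22.9 and 26.6 RPKM in the vector group, 21.9, 21.3 and 24.5 under OTUB2, and 22.5, 21.8 and 25.3 under SNX29P2. COL16A1, of the same class, was at 1.32, 1.73 and 1.28 RPKM in the vector group, 1.15, 1.76 and 1.31 under OTUB2, and 1.33, 1.60 and 1.36 under SNX29P2. COL9A3 was at 1.34, 0.914 and 1.02 RPKM in the vector group, 1.05, 1.05 and 0.969 under OTUB2, and 1.17, 0.974 and 0.785 under SNX29P2. The groups overlapped for all 3 of these genes. COL13A1, a transmembrane collagen found at cell adhesions, was at 20.6, 13.2 and 16.4 RPKM in the vector group, 17.1, 18.5 and 20.5 under OTUB2, and 15.6, 16.4 and 19.0 under SNX29P2, and its highest and lowest libraries were both vector libraries. COL17A1, the transmembrane collagen of hemidesmosomes, was at 3.32, 2.80 and 3.20 RPKM in the vector group, 3.83, 3.66 and 3.57 under OTUB2, and 3.68, 3.18 and 3.60 under SNX29P2. Every OTUB2 library was above every vector library for COL17A1. The vector group of COL18A1 spread most, with replicate 3 low. COL18A1, whose C-terminal fragment is endostatin, was at 4.50, 4.12 and 2.98 RPKM in the vector group, 3.17, 3.31 and 2.50 under OTUB2, and 2.85, 2.94 and 2.50 under SNX29P2.

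Laminin chains were expressed very unevenly. LAMB3, a beta chain of the anchoring laminin of epithelia, was at 87.0, 103 and 98.0 RPKM in the vector group, 124, 108 and 104 under OTUB2, and 124, 109 and 109 under SNX29P2, so that both overexpression groups lay above every vector library. LAMA3, the alpha chain it joins, was at 0.685 to 0.983 RPKM. The widely used chains LAMC1 and LAMB1 were close to each other, at a ratio of 1.10 to 1.34. LAMC1 was the steadiest of the high genes, at 47.7, 48.6 and 48.0 RPKM in the vector group, 49.2, 49.5 and 48.5 under OTUB2, and 47.4, 47.7 and 48.5 under SNX29P2. LAMB1 was at 35.5, 44.1 and 38.4 RPKM in the vector group, 39.7, 44.3 and 42.7 under OTUB2, and 38.6, 43.2 and 41.3 under SNX29P2.

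LAMA5 (6.48 to 8.69 RPKM) exceeded LAMA4 (2.75 to 4.40 RPKM) in every library as the main alpha chains. LAMA4, an alpha chain of mesenchymal and vascular basement membranes, was at 4.40, 4.18 and 2.85 RPKM in the vector group, 3.81, 3.76 and 3.44 under OTUB2, and 3.21, 2.76 and 2.75 under SNX29P2. Its OTUB2 libraries all lay above its SNX29P2 libraries, and the vector libraries spread over both. LAMB4 lies 20292 bases from LAMB1 and stayed below the limit for testing. It had 26, 15 and 21 reads in the vector group, 39, 64 and 52 under OTUB2, and 42, 27 and 36 under SNX29P2, and was singled out after its values were seen. Fitted with no filter on low values, its log2 fold change was 0.64 with OTUB2 (SE 0.193; limma, Benjamini-Hochberg adjusted p = 0.818). In the same fit the untested collagen gene COL10A1 went the other way, at -0.68 (limma, adjusted p = 0.804), with OTUB2 lower without overlap. LAMB4 averaged 0.0716 RPKM with the vector and 0.168 with OTUB2, and COL10A1 0.0763 and 0.0103. The 0.1 added before taking logs is of that size, so it shrinks both fold changes.

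Fibronectin, the matrix protein that integrin alpha 5 beta 1 binds, was the third highest gene of the set. FN1 (chromosome 2, 215360440 to 215436172) measured 125, 135 and 111 RPKM in the vector group, 79.4, 102 and 98.9 under OTUB2, and 76.4, 103 and 97.2 under SNX29P2. Every vector library was above every library of either overexpression group, and replicate 1 was the lowest in both of those groups. Its upstream sequence is shown because FN1 had the lowest log2 fold change of the tested genes with OTUB2. The 146 bases lie before the exons listed in the deposited table, at chr2:215436173-215436318 (RefSeq, GRCh38.p14), and are written on the minus strand, on which the gene is read, 5′ to 3′, with capitals as above.
FN1: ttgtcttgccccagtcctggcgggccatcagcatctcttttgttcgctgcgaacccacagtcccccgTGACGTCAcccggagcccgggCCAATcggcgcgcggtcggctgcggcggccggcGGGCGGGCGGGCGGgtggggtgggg

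The FN1 stretch holds 1 TGACGTCA, 1 CCAAT and 3 overlapping GGGCGG matches. TGACGTCA was found in 1 of the 81 windows of the set, that of FN1. SPARC, a collagen-binding protein that regulates adhesion, measured 54.6, 66.4 and 49.3 RPKM in the vector group, 52.5, 57.4 and 50.8 under OTUB2, and 52.5, 58.1 and 49.0 under SNX29P2. FBN2, a microfibril protein, was at 10.5, 10.3 and 10.8 RPKM in the vector group, 9.19, 8.73 and 9.88 under OTUB2, and 9.74, 9.14 and 10.4 under SNX29P2. FBN1 was lower, at 2.20 to 3.56 RPKM, and FBN3 had 1 read in 9 libraries. THBS1, an activator of latent TGF-beta, was at 4.38, 6.38 and 3.82 RPKM in the vector group, 4.09, 4.90 and 3.39 under OTUB2, and 3.69, 4.70 and 3.24 under SNX29P2. THBS3 was at 1.41, 1.38 and 0.712 RPKM in the vector group, 0.750, 1.10 and 0.910 under OTUB2, and 0.727, 1.17 and 1.03 under SNX29P2. In neither gene did the groups separate.

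The integrin alpha chains were led by the laminin receptors. ITGA3 (chromosome 17, 50055968 to 50090481), which pairs with ITGB1, was at 70.0, 80.8 and 63.8 RPKM in the vector group, 52.5, 59.1 and 55.5 under OTUB2, and 52.2, 58.2 and 54.9 under SNX29P2. The lowest vector library was above the highest library of both other groups. ITGA3 and COL1A1 lie 92807 bases apart, with other genes between them. ITGA6, the other abundant laminin receptor chain, was at 54.7, 43.7 and 52.0 RPKM in the vector group, 47.0, 46.2 and 52.5 under OTUB2, and 49.6, 44.2 and 55.5 under SNX29P2, with full overlap of the groups. ITGB4, the partner of ITGA6 in hemidesmosomes, was at 0.0313 to 0.135 RPKM.

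Of the receptors that recognise the RGD motif, ITGA5, the fibronectin receptor chain, was at 23.2, 23.8 and 21.6 RPKM in the vector group, 21.3, 26.3 and 21.4 under OTUB2, and 19.1, 23.7 and 19.4 under SNX29P2. ITGAV, whose product binds vitronectin with several beta chains, was at 7.23, 6.33 and 6.09 RPKM in the vector group, 5.15, 6.04 and 6.41 under OTUB2, and 5.76, 7.10 and 7.73 under SNX29P2. Its partners ITGB5 and ITGB3 were also present. ITGB5 was at 16.7, 19.9 and 15.1 RPKM in the vector group, 14.6, 17.2 and 15.2 under OTUB2, and 12.9, 14.8 and 13.5 under SNX29P2, and its SNX29P2 libraries were all below the vector libraries. ITGB3 was at 9.15, 8.58 and 6.03 RPKM in the vector group, 8.03, 8.55 and 7.35 under OTUB2, and 6.39, 7.37 and 6.33 under SNX29P2, so the ratio of ITGB5 to ITGB3 was 1.82 to 2.51.

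Among collagen receptors ITGA2 was the main chain, at 7.99, 6.67 and 6.46 RPKM in the vector group, 9.03, 8.15 and 7.94 under OTUB2, and 7.88, 7.43 and 8.44 under SNX29P2. The OTUB2 libraries and the vector libraries overlapped by vector replicate 1 alone. ITGA10 (0.538 to 1.09 RPKM) and ITGA1 (0.551 to 0.850 RPKM) were low, and ITGA11 had at most 10 reads in 1 library. ITGA4, a receptor chain for fibronectin and VCAM-type ligands, was at 4.45, 4.27 and 4.15 RPKM in the vector group, 3.44, 4.42 and 4.24 under OTUB2, and 3.79, 4.51 and 4.32 under SNX29P2. The level of ITGB1 was 0.828 to 1.03 times the sum of 10 alpha chains that pair with it (ITGA1 to ITGA7 and ITGA9 to ITGA11).

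Several integrins typical of leukocytes had their highest level in OTUB2 replicate 1. ITGAL, the alpha chain of the leukocyte receptor for ICAM proteins, had 70 reads in OTUB2 replicate 1 and 0 in each of the other 8 libraries. ITGAM had 32 reads there and at most 2 elsewhere, ITGAX 104 reads against at most 26, and ITGB7 25 against at most 10. The same library held 118 reads of the leukocyte phosphatase PTPRC (at most 2 elsewhere), 34 of the T cell gene CD3E (0 elsewhere) and 316 of the lysozyme gene LYZ (at most 16 elsewhere). All 4 leukocyte markers found in the table were highest in it: PTPRC, CD3E, LYZ and ITGAM, the last being the integrin gene given above. Their summed level was 4.97 RPKM there at the top of the OTUB2 range, of which LYZ made up 4.22 RPKM. Over the vector libraries the sum was 0.0386 to 0.213 RPKM, and over those of SNX29P2 0.0495 to 0.197. The part of leukocyte RNA in the other values of that library was not tested. These genes were singled out after their values were seen, and none of the 4 integrin genes reached the limit for testing.

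ITGB2, the beta chain that pairs with ITGAL, ITGAM, ITGAX and ITGAD on leukocytes, was by contrast at 6.08 to 8.88 RPKM in every library and at 7.06 RPKM in OTUB2 replicate 1. Outside that library its alpha partners did not exceed 0.0861 RPKM. ITGAE was at 2.39, 3.12 and 3.47 RPKM in the vector group, 3.66, 3.29 and 3.63 under OTUB2, and 3.34, 3.07 and 3.23 under SNX29P2, with its partner ITGB7 at or below 0.132 RPKM.

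**Figure D2:**
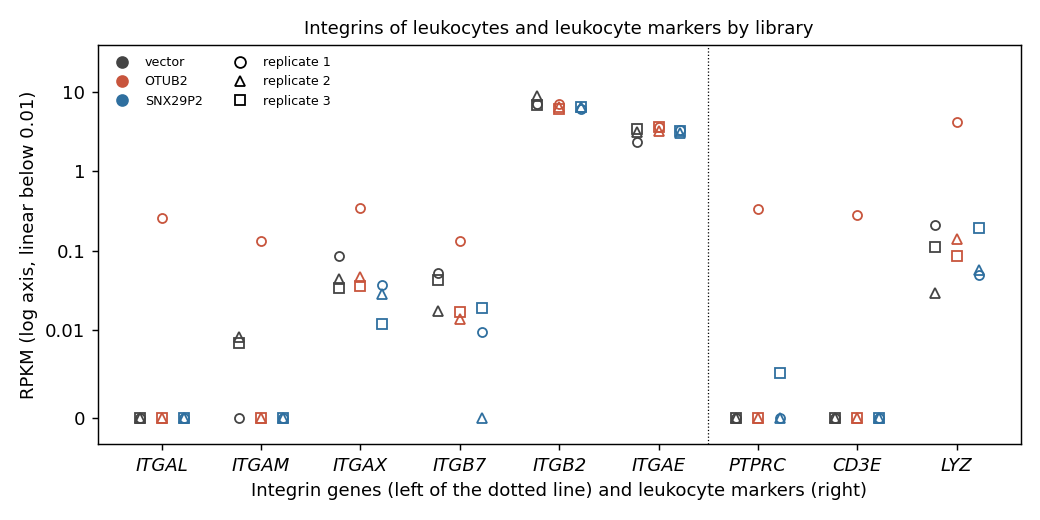
Levels in RPKM, on a log axis that is linear below 0.01, of 6 integrin genes (left of the dotted line) and 3 leukocyte markers (right), with 1 symbol per library. OTUB2 replicate 1 stands above the other 8 libraries for ITGAL, ITGAM, ITGAX, ITGB7 and the 3 markers. It is narrowly the highest for ITGAE and lies within the range of the others for ITGB2.

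With OTUB2 overexpression none of the 42 tested genes was called against the vector (limma, Benjamini-Hochberg adjusted p under 0.05), where 0.0181% of all 16533 genes were called. The lowest adjusted p among them was 0.532, for ITGA3. ITGA3 had a log2 fold change of -0.36 (95% interval -0.56 to -0.15, unadjusted; limma, adjusted p = 0.532), a level 1.28-fold lower on the fitted scale. FN1 was at -0.41 (-0.71 to -0.11; adjusted p = 0.668), 1.33-fold lower. COL18A1 at -0.35, ITGB8 at -0.31 and COL1A1 at -0.28 were the next lowest, with limma adjusted p-values of 0.750, 0.814 and 0.814. ITGB8 encodes a chain that binds latent TGF-beta. At the other end, among genes averaging 1 RPKM in a group, stood ITGA2 at 0.25, ITGAE at 0.25, COL17A1 at 0.24, LAMB3 at 0.22 and COL13A1 at 0.18, with limma adjusted p-values of 0.707 to 0.882. Single libraries moved several of these values: COL13A1 was at 0.02 without vector replicate 2 and at 0.34 without vector replicate 1, ITGAE at 0.10 without vector replicate 1, and LAMB3 at 0.14 without OTUB2 replicate 1. Among the lower genes, COL1A1 was at -0.15 without vector replicate 2 and -0.16 without OTUB2 replicate 1, COL18A1 at -0.23 without vector replicate 1 or OTUB2 replicate 3, and ITGB8 at -0.20 without vector replicate 1.

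As a set the tested genes had a median log2 fold change of -0.06 with OTUB2, against 0.01 for all genes tested. Of the 42, 27 lay below 0, or 64.3%, against 48% of all genes. Unadjusted p-values under 0.05 were found for 7, or 16.7% (6.73% of all genes). The groups did not overlap, with OTUB2 lower, for 7 genes (FN1, ITGA3, ITGA10, FBN2, ITGB8, COL27A1 and COL5A1), or 16.7% against 4.91% of all genes. They did not overlap, with OTUB2 higher, for 3 (LAMB3, COL17A1 and ITGA1), or 7.14% against 5.9%. Genes of 1 family share libraries and are not independent, so these shares are descriptions. Without OTUB2 replicate 1, the library with leukocyte transcripts, 1 of the 42 had an unadjusted p under 0.05 and none was called. Without the libraries numbered 2 the numbers were 3 and 0. Of all 16533 genes, 1 was called in each of these 2 fits. The share of all genes at an unadjusted p under 0.05 was not computed for them. Fewer libraries weaken the test for every gene, so the lower counts are not particular to this set.

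**Figure D3:**
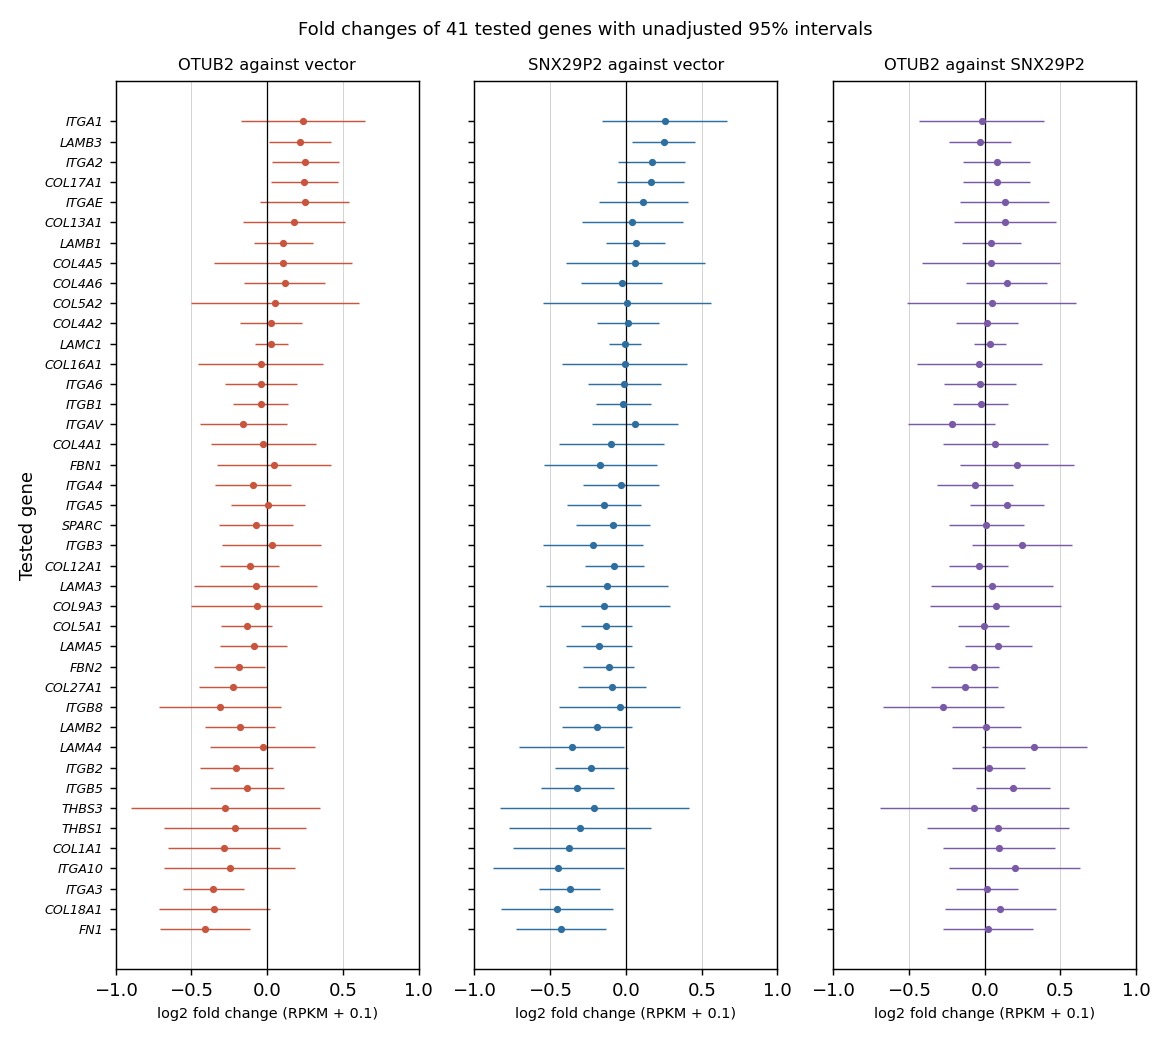
Log2 fold changes on the log2(RPKM + 0.1) scale (x axis) of 41 tested genes (y axis) in the 3 comparisons, with points for the estimate and lines for the unadjusted 95% interval. FN1 and ITGA3 lie at -0.41 and -0.36 with OTUB2 and at -0.43 and -0.37 with SNX29P2, and none of the genes was called after adjustment.

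With SNX29P2 overexpression none of the 42 genes was called either, where 0.0363% of all genes were. The comparison uses the same vector libraries, so its values are not independent of those above. COL18A1 was lowest, with a log2 fold change of -0.453 (95% interval -0.82 to -0.09; limma, adjusted p = 0.551), 1.37-fold lower. ITGA10, which averaged below 1 RPKM in each group, was next at -0.445 (-0.88 to -0.01; limma, adjusted p = 0.602). FN1 was at -0.43 (-0.73 to -0.13; limma, adjusted p = 0.502), COL1A1 at -0.38 (-0.75 to -0.01; adjusted p = 0.603), ITGA3 at -0.37 (-0.57 to -0.17; adjusted p = 0.488) and LAMA4 at -0.36 (-0.71 to -0.01; adjusted p = 0.600). At the other end ITGA1, which also averaged below 1 RPKM in each group, was highest of the 42 at 0.26 (-0.16 to 0.67; limma, adjusted p = 0.756). Among genes averaging 1 RPKM in a group, LAMB3 was highest at 0.25 (0.04 to 0.45; limma, adjusted p = 0.551). It was followed by ITGA2 at 0.17, COL17A1 at 0.16, ITGAE at 0.12 and LAMB1 at 0.06. COL1A1 was at -0.24 without vector replicate 2 or SNX29P2 replicate 1, and LAMA4 at -0.55 without vector replicate 3. COL17A1 was at 0.09 without vector replicate 2, and ITGA2 at 0.26 without vector replicate 1 and 0.11 without vector replicate 3.

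The median over the 42 was -0.09 with SNX29P2, against 0.01 for all genes, and 30 lay below 0, or 71.4% against 46.4%. Unadjusted p-values under 0.05 were found for 8, or 19.0% (8.21% of all genes). SNX29P2 lay lower without overlap for 6 genes (FN1, ITGA3, ITGA10, ITGB2, COL18A1 and ITGB5), or 14.3% against 5.53%. LAMB3 alone lay higher without overlap, 2.38% of the 42 against 6.13% of all genes. The number with an unadjusted p under 0.05 was 5 without vector replicate 1 or OTUB2 replicate 3 and 4 without vector replicate 2 or SNX29P2 replicate 1. For these fits the share of all genes was not computed.

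**Figure D4:**
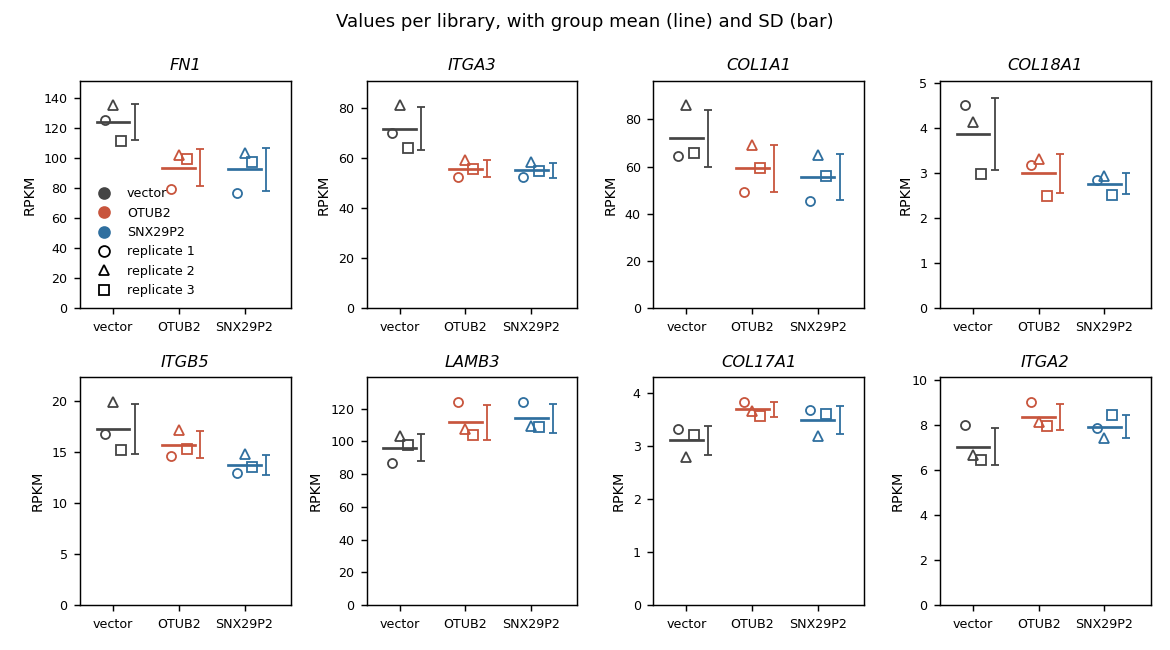
Values per library in RPKM (y axis, from 0) for 8 genes in the 3 groups (x axis), with symbols for replicates, a line for the group mean and a bar for the SD of 3 libraries. The vector libraries lie above all others for FN1 and ITGA3, and below all others for LAMB3.

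Between OTUB2 and SNX29P2 libraries, FN1 and ITGA3 had nearly equal means. None of the 42 genes was called between them (0.0242% of all genes were), and 0 had an unadjusted p under 0.05 (2.43% of all genes). FN1 differed by 0.02 in log2 (95% interval -0.28 to 0.32) and ITGA3 by 0.02 (-0.19 to 0.22). Among genes averaging 1 RPKM in a group, LAMA4 had the highest value, 0.33 (-0.02 to 0.68; limma, adjusted p = 1.00), followed by ITGB3 at 0.25, FBN1 at 0.21, ITGB5 at 0.19 and ITGA5 at 0.15. ITGB8 was lowest at -0.27, with ITGAV at -0.22, COL27A1 at -0.13 and FBN2 at -0.07. The median was 0.04, against -0.00 for all genes, with 14 of the 42, or 33.3%, below 0 (51.4% of all genes). OTUB2 lay above SNX29P2 without overlap for LAMC1, LAMA4 and COL4A6, 7.14% against 4.3%, and below it for none, against 4.05%. Same-numbered OTUB2 and SNX29P2 libraries deviated together, as did those numbered 2 and 3 with the vector. The values above are from the fit without pairing. With the replicate number as a block, 3 of the 42 had an unadjusted p under 0.05 between OTUB2 and SNX29P2 and none was called. The share of all genes was not computed for that fit.

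Replicate numbers moved with part of these genes. In every group the library numbered 2 was the highest for 12 of the 42 genes, or 28.6%, against 14.2% of all genes tested. These were FN1, COL1A1, ITGA3, SPARC, LAMB1, COL4A1, COL4A2, COL16A1, ITGA5, ITGB5, THBS1 and FBN1. It was the lowest in every group for 5 (ITGA6, COL5A2, FBN2, COL12A1 and COL4A5), or 11.9% against 10.4%. The library numbered 3 was the lowest in every group for 8 genes, among them THBS1, FBN1, ITGB3, LAMA3, COL18A1, SPARC and LAMA4, or 19.0% against 9.27%, and the highest for 2, against 4.59%. The library numbered 1 was the highest in every group for 4 genes, against 8.93%, and the lowest for 2, against 6.05%. For COL1A1 the libraries numbered 2 were at 86.0, 69.2 and 65.0 RPKM in the vector, OTUB2 and SNX29P2 groups, and the libraries numbered 1 at 64.6, 49.3 and 45.5 RPKM. Without the libraries numbered 2, FN1 was at -0.41 with OTUB2 and -0.45 with SNX29P2, and ITGA3 at -0.31 and -0.32, none of them called. What the numbers stand for is not given in the labels.

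Genes that make, modify or anchor the matrix were listed separately, and none was called in any comparison. Of 30 tested genes for collagen folding, modification and crosslinking, 18 lay lower with OTUB2 (median -0.06) and 22 with SNX29P2 (median -0.06). Of all genes tested, 48% lay lower with OTUB2 and 46.4% with SNX29P2, the shares to set beside the counts of each list. The smallest p-values were those of the lysyl hydroxylase PLOD2 with OTUB2, at -0.40 with 42.2 against 55.9 RPKM (limma, adjusted p = 0.661), and of the collagen chaperone FKBP10 with SNX29P2, at -0.22 with 59.7 against 69.6 RPKM (adjusted p = 0.488). P3H3, a prolyl hydroxylase of collagen, was at -0.23 and -0.30. Of 28 integrin adhesion adaptors, 17 lay lower with OTUB2 (median -0.05) and 22 with SNX29P2 (median -0.09). ITGB1BP1, which binds the tail of ITGB1, was at 0.19 with OTUB2, the integrin inhibitor SHARPIN at -0.14 and -0.20, and the kindlin FERMT3 at -0.40 with SNX29P2.

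Of 13 other matrix receptors, 7 and 8 lay lower (medians -0.06 and -0.11). ENG, a co-receptor of TGF-beta, averaged 117, 136 and 117 RPKM in the vector, OTUB2 and SNX29P2 groups, a log2 fold change of 0.22 with OTUB2 (limma, adjusted p = 0.507), and the laminin receptor BCAM was at -0.25 and -0.35. The proteoglycan receptor SDC1 was at -0.18 with SNX29P2. Of 14 other matrix proteins, 11 lay lower in each comparison with the vector (medians -0.19 and -0.26). The proteoglycan AGRN averaged 16.4, 13.0 and 12.7 RPKM in the vector, OTUB2 and SNX29P2 groups, with log2 fold changes of -0.33 and -0.36 (limma, adjusted p = 0.554 and 0.488). EFEMP1, a fibulin, averaged 7.96, 10.1 and 8.66 RPKM in these groups, and was at 0.34 with OTUB2. SPP1, osteopontin, averaged 4.75, 8.32 and 7.51 RPKM, above the vector in both overexpression groups, and was at 0.62 with SNX29P2. Between OTUB2 and SNX29P2, the medians of these 4 lists were 0.04, 0.03, 0.08 and 0.07, and the smallest p-value was that of ENG, at 0.22 (limma, adjusted p = 1.00).

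Over the 42 genes the standard error of the log2 fold change had a median of 0.123 and the 95% interval a median width of 0.28 on each side of the estimate, or 1.21-fold, with 3 libraries per group. In GENCODE 29 an exon of 20 of the 42 tested genes overlaps an exon on the opposite strand, among them ITGB1, ITGA6, LAMB1, SPARC, ITGB2 and COL18A1. How strand was handled in counting is not given in the sources used here, so reads of such partners cannot be told apart. An exon of 5 tested genes (LAMB3, ITGB3, LAMA5, COL17A1 and ITGA1) overlaps another gene on the same strand, where strand would not separate reads. For ITGA1 this includes PELO.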

How the data were processed

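RNA of ES-2 cells was sequenced in 9 libraries, grouped by the genotype in the labels. Per the file headers, the authors deposited RPKM per gene beside its length and exons. The build is GRCh38 (per the submitters' processing notes). The sources used here do not give the aligner, the counting program, its strand setting or the annotation. Value times length summed to the same total in each library, and below 1000 reads 100% of values were whole multiples of 1 read (tolerance 0.05), so reads could be recovered. Replicates of a group differed by more than counting noise (chi-square per gene 12.0 to 39.6).

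The 16533 genes reaching 0.5 RPKM in 3 or more libraries entered 1 limma fit (3.58.1, R 4.3.3) of log2(RPKM + 0.1) on group over all 9 libraries, with trended variance and Benjamini-Hochberg adjustment over all of them at 0.05. Fold changes are on that scale. The planned edgeR test on recovered reads was not used, since the table holds RPKM, and limma voom was used instead, chosen after seeing the data. The programs were tested on simulated data. Reads are not independent molecules, so read numbers are not counts of molecules and carry more than counting error.

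Members and lists were chosen with earlier results of these data known. By rule, up to 3 genes per role averaging 1 RPKM or more are given by library, and for each comparison the 5 highest and 5 lowest fold changes among genes averaging 1 RPKM in a group, with up to 2 genes of each further list by smallest p. 6 further names on the role list were not analysed here. 1 tested gene stays in the counts and medians and is not reported here. Same-numbered libraries correlated in their deviations at -0.02 to 0.27 and others at -0.23 to 0.05. All 3 same-numbered pairs of OTUB2 and SNX29P2 libraries exceeded 0.1, at 0.15 to 0.27. Those with the vector were at 0.05 and -0.02 for number 1 and at 0.10 to 0.19 for numbers 2 and 3. The reported fit held no pairing, and the number entered as a block in a further fit of all 3 comparisons. Further steps used matplotlib 3.10.9, numpy 2.4.6, pandas 2.3.3 and python 3.11.15. Promoter windows are from RefSeq (GRCh38.p14).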

Additional observations from a re-analysis of the deposited data

How the results depend on the processing

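The fits were repeated with a pseudocount of 1 or 0.01, with all genes kept, with 1 RPKM required in 6 libraries, with median-of-ratios scaling, only the compared groups, the replicate number as a block, each library left out, the libraries numbered 2 left out, and limma voom on recovered reads. In each of these 18 alternatives 0 of the matrix and integrin genes were called in each of the 3 comparisons, including the fit with the replicate block (0). The number at an unadjusted p under 0.05 was 1 to 10 with OTUB2 (7 as reported), 4 to 10 with SNX29P2 (8) and 0 to 3 between them (0). Under the block it was 10, 9 and 3, and limma voom gave 9, 10 and 1. The share of all genes at that limit was computed for the reported fit alone, so these counts have none beside them. Over all genes tested, the block called 4, 9 and 4 and limma voom 3, 10 and 4, against 3, 6 and 4 in the reported fit. For FN1, ITGA3 and COL1A1 the block gave lower limma adjusted p-values than the reported fit. They were 0.233, 0.184 and 0.213 with OTUB2, and 0.197, 0.151 and 0.151 with SNX29P2. The median over the set stayed below 0 with OTUB2 (-0.13 to -0.01) and SNX29P2 (-0.11 to -0.04). FN1 ranged from -0.49 to -0.30 with OTUB2 and from -0.52 to -0.30 with SNX29P2, and ITGA3 from -0.43 to -0.26 and from -0.45 to -0.28. Sign was followed only for the highest and lowest fold changes given for each comparison among genes averaging 1 RPKM in a group. Leaving out 1 library at a time, 2 of these values changed sign, both with SNX29P2. LAMB1 ranged from -0.0058 to 0.15 and ITGAE from -0.033 to 0.23, both negative without vector replicate 1. Whether the other tested genes changed sign was not tested. Between OTUB2 and SNX29P2, ranges over the libraries left out were -0.34 to -0.13 for ITGAV, -0.35 to -0.17 for ITGB8, -0.19 to -0.07 for COL27A1, -0.12 to -0.03 for FBN2, 0.05 to 0.25 for ITGA5, 0.12 to 0.24 for ITGB5 and 0.11 to 0.30 for FBN1. The edgeR test was not run.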
